A study of Rattus norvegicus with 4 samples.

Results

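The NR4A orphan nuclear receptors Nr4a1 (Nur77), Nr4a2 (Nurr1) and Nr4a3 (NOR-1) were read by 7 probe sets of a rat Affymetrix GeneChip, out of 8740 probe sets left after the Affymetrix control probe sets were removed. They are 3 of the 4736 genes with a probe set of their own on the array. A probe set is a group of short oligonucleotides that together report 1 transcript. The members were all the probe sets that the platform annotation assigns to these 3 symbols: 2 for Nr4a1, 2 for Nr4a2 and 3 for Nr4a3. No NR4A probe set was shared with another gene symbol. The family was taken up because several of its probe sets were already known to be lower in the unloaded pools of these same arrays, so its differences between the groups are given as a description, with no test.

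RNA was from the soleus of female rats, a hindlimb muscle of mostly slow fibres that holds posture. Control rats were caged with normal standing and walking (2 pools), and unloaded rats could not bear weight on their hindlimbs during 10 h daily for 11 days (2 pools). Every pool combined RNA of 4 to 5 rats and was hybridised to 1 array, so n is 2 pools per group and spreads describe pools and not single animals. The labels name no strain, no age and no interval between the last unloading bout and tissue collection.

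NR4A receptors are nuclear receptors whose ligand pocket is filled by bulky side chains, so their activity follows largely from how much receptor is made. Their genes are early response genes: cyclic AMP, calcium and growth factor signals switch them on quickly and briefly, and in skeletal muscle contraction and beta-adrenergic stimulation are known inducers. The receptors bind the NBRE element as monomers, and Nr4a1 and Nr4a2 can also pair with retinoid X receptors. In muscle they have been linked to genes of glucose use, glycogen and oxidative metabolism.

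The promoters of Nr4a1 and Nr4a2 are shown because the probe sets of the family were lower together and because the Nr4a1 promoter carries repeated elements through which such signals act. Both come from RefSeq on the rat assembly GRCr8, where 2 of the 3 genes had an entry, and run from 250 bases before to 50 bases after an annotated start. Both starts lie inside the span annotated for the gene, so other starts of these genes are not covered. The Nr4a1 gene spans chr7:134247153-134268044, and its window is chr7:134259888-134260187 on the plus strand. The Nr4a2 gene spans chr3:62098739-62115926, and its window is chr3:62104838-62105137 on the minus strand. Nr4a3 spans chr5:67157141-67198287. Capitals mark TGCGTCA.
Nr4a1: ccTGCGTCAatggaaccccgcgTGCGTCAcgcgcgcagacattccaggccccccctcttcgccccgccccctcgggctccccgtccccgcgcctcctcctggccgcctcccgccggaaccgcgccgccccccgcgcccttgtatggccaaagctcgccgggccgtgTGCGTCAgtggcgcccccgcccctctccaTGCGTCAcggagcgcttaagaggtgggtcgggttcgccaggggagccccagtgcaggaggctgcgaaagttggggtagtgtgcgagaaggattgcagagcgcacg
Nr4a2: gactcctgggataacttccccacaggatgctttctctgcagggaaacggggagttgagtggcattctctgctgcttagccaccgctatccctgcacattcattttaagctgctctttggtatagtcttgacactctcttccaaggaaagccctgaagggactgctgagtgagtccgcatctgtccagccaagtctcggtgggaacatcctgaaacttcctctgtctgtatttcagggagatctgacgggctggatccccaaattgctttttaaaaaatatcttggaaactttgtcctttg

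The Nr4a1 window held TGCGTCA 4 times, all on the strand of the gene, with the first base 248, 228, 84 and 55 bases before the start. TGCGTCA was searched on both strands (reverse complement TGACGCA) and occurred in 1.9% of 33469 rat promoter windows of the same length. The Nr4a1 window was the only 1 of these with 3 or more copies. The other motifs searched, on both strands, were the full cyclic AMP response element TGACGTCA (1.83% of windows), the AP-1 site TGACTCA (4.63%) and the NBRE AAAGGTCA (1.43%). None of these 3 was found in the Nr4a1 window, and none of the 4 motifs in the Nr4a2 window. GC content was 72.3% in the Nr4a1 window, above 94.4% of all windows, and 48.7% in the Nr4a2 window, above 39.8%.

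Signals below are MAS5 intensities, the array software's summary of a probe set on a linear scale. Each array had been scaled to a common mean, and the trimmed means were 150.25 or 150.26 on all 4 arrays. Levels of different probe sets are not compared, since each binds its target with its own strength. Log2 differences are unloaded minus control on log2(signal + 9), which understates the change of dim probe sets. Over the 5257 probe sets bright enough to be tested, the correlation of log2 signals was 0.987 for the 2 control pools, 0.988 for the 2 unloaded pools and 0.973 to 0.974 across the groups. The tissue was as labelled by its markers: all 7 slow-fibre genes on the array passed the filter on dim signals, Myh7 read 9534.3 to 11198.2, and the summed slow-fibre signal was 37940 and 37450 in the control pools and 35720 and 39150 in the unloaded pools.

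Both unloaded pools lay below both control pools for 6 of the 7 NR4A probe sets, and the groups of the seventh, a dim Nr4a3 probe set, overlapped. The same order was seen in 22.7% of all 8740 probe sets, and nothing is read from this count, since the family was chosen on this contrast. These 6 probe sets, 2 for each gene, were also those that passed the filter of a mean signal of 21.0.

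**Figure D1:**
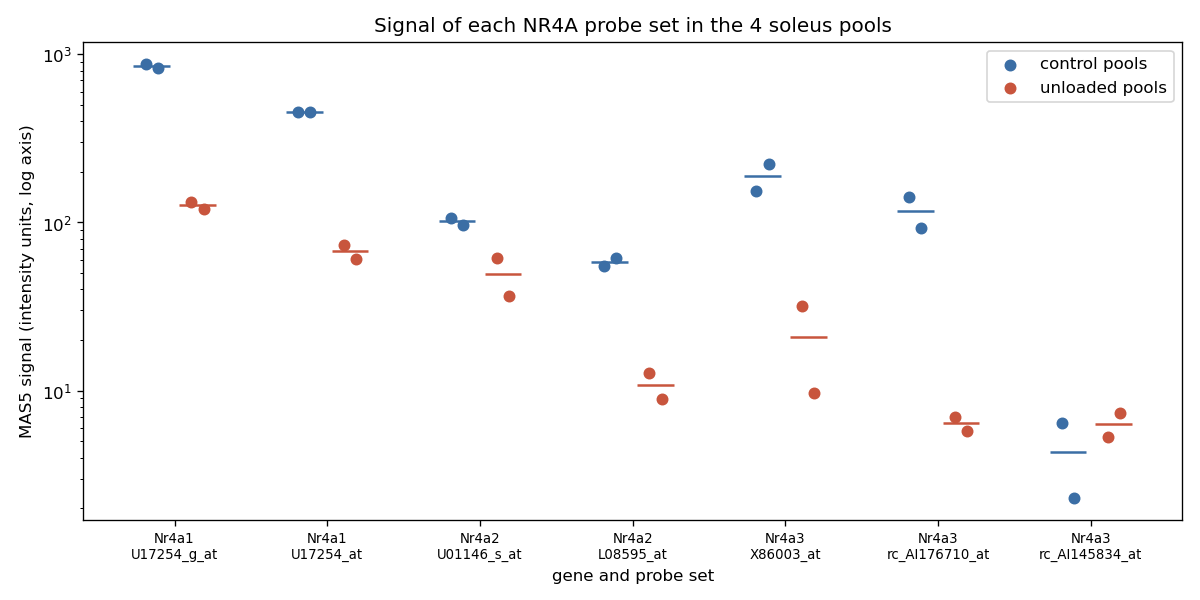
Signal of each NR4A probe set (horizontal axis) in the 2 control and 2 unloaded soleus pools, on a logarithmic axis of MAS5 intensity, where points are pools and short lines are group means. The groups stand apart for 6 probe sets and overlap for the Nr4a3 probe set rc_AI145834_at, whose signals are all 7.4 or less.

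Nr4a1, the founding member and the one most studied in muscle metabolism, was read by 2 probe sets designed on the same sequence, which are therefore not independent. On U17254_g_at the control pools read 873.5 and 831.8 and the unloaded pools 132.8 and 120.1. The control pools were close to each other, the unloaded pools were close to each other, and every control pool was 6.26 to 7.27 times as bright as every unloaded pool. The group means were 852.6 ± 29.5 (SD, n = 2) and 126.5 ± 8.98 (SD, n = 2), a log2 difference of -2.67. On U17254_at the control pools read 455.8 and 452.2 and the unloaded pools 73.9 and 61.0. The means were 454.0 ± 2.55 and 67.5 ± 9.12 (SD, n = 2 each), a log2 difference of -2.60. The 2 probe sets thus gave ratios of the means of 6.74 and 6.73. Both stayed above the array median in the unloaded pools, at percentiles 75.0 and 63.1 of all signals, and with an offset of 34.8 in place of 9 the log2 differences were -2.46 and -2.26.

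Nr4a2, known above all for its role in midbrain dopamine neurons, was read by 2 probe sets made from different sequences. On L08595_at the control pools read 55.5 and 61.7 and the unloaded pools 12.7 and 8.9. The groups were well apart, with means of 58.6 ± 4.38 and 10.8 ± 2.69 (SD, n = 2 each), and the log2 difference was -1.78. The unloaded signals lay close to the offset of 9, so the size of this difference depends on it: it was -2.17 with an offset of 3 and -1.03 with an offset of 34.8. On U01146_s_at the control pools read 106.9 and 96.5 and the unloaded pools 61.9 and 36.5. This was the smallest difference among the 6 probe sets that passed the filter (-0.96), and the unloaded pools differed from each other by 0.64 on the log2 scale, more than the 0.57 between the lowest control and the highest unloaded pool. The suffix _s_at marks a probe set that may also bind related transcripts, and whether it reads Nr4a2 alone was not tested.

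Nr4a3, which exercise and beta-adrenergic stimulation are known to induce in muscle, had more negative log2 differences than Nr4a1 on its 2 brighter probe sets with offsets of 9 and 3, and less negative ones with an offset of 34.8. On rc_AI176710_at the control pools read 141.7 and 93.0 and the unloaded pools 7.0 and 5.8. The groups were far apart, but the unloaded signals lay at percentile 19.4 of the array, below the offset, where no fold can be measured. The log2 difference of -3.01 is therefore set by the offset, and it was -1.87 with an offset of 34.8 and -3.65 with an offset of 3. On X86003_at the control pools read 154.6 and 224.1 and the unloaded pools 31.9 and 9.7. The log2 difference was -2.82, with single pairs of pools from -2.00 to -3.64, and it was -2.02 with an offset of 34.8. Here the SD between pools on the log2 scale was 0.36 in controls and 0.80 in unloaded rats, against medians of 0.105 and 0.102 over all tested probe sets. The third probe set, rc_AI145834_at, read 6.4 and 2.3 in the control pools and 5.3 and 7.4 in the unloaded pools. It was dim in all 4 pools and did not pass the filter, and at such signals the order of the pools carries no information on Nr4a3.

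**Figure D2:**
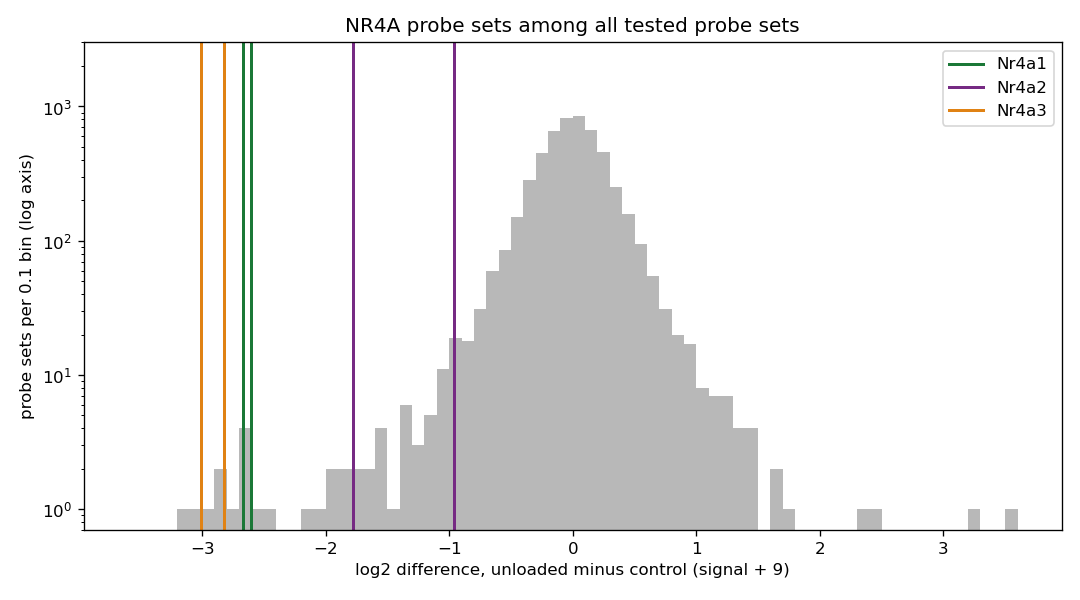
Number of tested probe sets (logarithmic axis) by log2 difference, unloaded minus control, with vertical lines at the 6 NR4A probe sets that passed the filter. Most probe sets lie near 0 (median 0.00135), and the lines of Nr4a1 and Nr4a3 stand between -2.60 and -3.01 at the lower end.

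Among the 5257 tested probe sets, ordered from the most negative log2 difference, the Nr4a3 probe sets took places 3 (rc_AI176710_at) and 6 (X86003_at). The Nr4a1 probe sets took places 9 and 11, and those of Nr4a2 places 20 (L08595_at) and 60 (U01146_s_at). A log2 difference of -1 or lower was seen in 1.01% of the tested probe sets, and 5 of the 6 NR4A probe sets are among them. The filter was set on the mean of all pools. The unloaded means of L08595_at (10.8), X86003_at (20.8) and rc_AI176710_at (6.4) lay below its cut. These probe sets passed only through their brighter control pools, and a probe set that passes in this way has a negative difference. These places hold for the offset of 9, and the differences were part of why the family was chosen. Nothing is therefore read from the places or from the share at -1 or lower.

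In the unloaded group, pool 2 was lower than pool 1 on all 6 NR4A probe sets that passed the filter. This order was seen in 48.1% of all tested probe sets. Unloaded signals of rc_AI176710_at (7.0 and 5.8), L08595_at (12.7 and 8.9) and X86003_at in pool 2 (9.7) lay near or below the offset of 9. At such signals the order of pools carries little information, and the 2 Nr4a1 probe sets are not independent. Nothing is therefore read from the order of the unloaded pools. The control pools did not keep 1 order. Control pool 2 was lower on 4 of the 6 probe sets, against 50.9% of all tested, and higher on L08595_at and X86003_at. The 2 brighter Nr4a3 probe sets thus disagreed on which control pool was higher. For Nr4a1 the gap from the lowest control to the highest unloaded pool was 2.57 (U17254_g_at) and 2.48 (U17254_at) on the log2 scale, while pools of 1 group were at most 0.24 apart.

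The genes whose pattern over the 4 pools lay closest to that of U17254_g_at were found by the Euclidean distance between mean-centred log2 signals, over tested probe sets of other genes. They were Fos (distance 0.21), a subunit of the AP-1 transcription factor, Irs2 (0.24), an adaptor of the insulin receptor, Atf3 (0.26), a stress-induced transcription factor, and Hspa1a (0.31), an inducible chaperone. The small GTPase Rrad (0.56) and Ppp1r15a (0.74), which directs a phosphatase to a translation factor, followed. The second Nr4a1 probe set lay at 0.11, rc_AI176710_at of Nr4a3 at 0.49, X86003_at at 0.83, L08595_at of Nr4a2 at 0.91 and U01146_s_at at 1.75. The probe set of Fos read 342.9 and 335.1 in the control pools and 42.5 and 48.5 in the unloaded pools. That of Irs2 read 118.7 and 98.9 against 8.4 and 5.9. The unloaded signals of Irs2 lay below the offset, so its closeness to Nr4a1 holds only on this scale, and another Irs2 probe set (AF050159_at) had a log2 difference of -0.99. With 4 pools in 2 groups, closeness on this measure means mainly a like difference between the groups.

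Genes that surround the NR4A receptors were then examined through 6 lists. The brightest probe set with 1 symbol stands for a gene, and a gene is said to have risen or fallen where limma's adjusted p (Benjamini-Hochberg over all tested probe sets) was under 0.05. Over all tested probe sets 2.66% fell and 2.59% rose, and the median log2 difference was 0.00135. Values in parentheses are log2 differences with their standard error (SE). There were 6 genes in more than 1 list.

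Of 21 immediate early genes tested, the class to which the NR4A genes belong, 9 fell, 1 rose and 11 did not pass. The list median was -0.63. Atf3 fell from 289.9 ± 57.9 to 33.75 ± 3.04 (-2.79, SE 0.16), and Ccn1, a secreted matrix-associated protein, fell as well (-2.00, SE 0.32). Ppp1r15a (-1.99, SE 0.13), Fos (-1.84, SE 0.14; -2.68 and -2.63 on its dimmer probe sets), the zinc finger factor Klf4 (-1.59, SE 0.11) and Ier3 (-1.30, SE 0.16) fell too. Smaller falls were seen for Dusp1, a phosphatase that switches off MAP kinases (-0.99, SE 0.10), for the RNA-binding protein Zfp36l1 (-0.95, SE 0.10) and for Klf6 (-0.63, SE 0.12). Klf10, a factor induced by TGF-beta, went the other way, from 62.35 ± 12.9 to 179.1 ± 17.4 (1.41, SE 0.16). The adjusted p of these 10 genes ran from 1.4e-04 to 0.028. With 1 pool left out, Klf6 was not called in any of the 4 cases (-0.59 to -0.67), Ccn1 (-2.10 and -1.90) and Ier3 (-1.33 and -1.27) were not called without control pool 1 or 2, and Klf10 (1.31) was not called without unloaded pool 1. Among the 11 that did not pass were Egr1 (-0.66, SE 0.24, adjusted p = 0.174), Junb (-0.79, SE 0.23, adjusted p = 0.0987) and Jun (-0.14, SE 0.09, adjusted p = 0.475). The early genes therefore did not all have the spacing of the groups seen for Nr4a1: Jun read 1171.2 and 1174.0 in the control pools and 1124.3 and 1013.0 in the unloaded pools.

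Of 14 genes known to respond to cyclic AMP or calcium, 5 fell, 1 rose and 8 did not pass. The list median was -0.62. Besides Atf3, Fos and Dusp1, the genes that fell were Irs2 (-0.99, SE 0.19, adjusted p = 0.0283) and Crem (-0.58, SE 0.12, adjusted p = 0.0319), which encodes activators and repressors that bind the cyclic AMP response element. The other tested Irs2 probe sets also passed, with larger falls (-2.87 and -1.66). Those of Crem gave -0.58 and -0.49 and did not pass. Pde4b, which breaks down cyclic AMP, rose from 202.8 ± 19.1 to 316.4 ± 3.11 (0.62, SE 0.11, adjusted p = 0.021), while its other probe sets gave 0.29 and -0.03 and did not pass. Hk2 (-0.59, SE 0.14, adjusted p = 0.0514) did not pass. The count of 6 genes came to 3, all lower, when either control pool or unloaded pool 2 was left out. On their counted probe sets Irs2 (-0.77 to -1.21), Crem (-0.55 to -0.62) and Pde4b (0.53 to 0.71) were not called with any 1 of the 4 pools left out. For Irs2 this holds for AF050159_at, which had the smallest fall of its tested probe sets, and not for the gene as a whole.

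None of the 22 tested genes of the signalling that leads to NR4A promoters passed, with a list median of -0.07. At an unadjusted limma p under 0.05 there were 2 of these genes, Ppp3cb and Map2k1, against 1092 of all 5257 tested probe sets. The smallest p belonged to Ppp3cb, a catalytic subunit of calcineurin (0.51, SE 0.16, adjusted p = 0.127), and Map2k1, a kinase that activates ERK (-0.35, SE 0.12, adjusted p = 0.163). Prkaca, the catalytic subunit of protein kinase A, gave -0.21 (SE 0.10, adjusted p = 0.271) and Camk2b -0.19 (SE 0.09, adjusted p = 0.305). Creb1, the factor that binds cyclic AMP response elements, gave -0.54 (SE 0.28, adjusted p = 0.323). These are transcript levels, and the activity of these proteins was not measured.

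None of 12 partner receptors and coregulators passed either, with a list median of -0.10 and 1 gene, Ncoa4, at an unadjusted limma p under 0.05. The smallest p was that of the coactivator Ncoa4 (0.34, SE 0.15, adjusted p = 0.239). The retinoid X receptors, with which Nr4a1 and Nr4a2 pair, gave -0.14 (SE 0.13, adjusted p = 0.601) for Rxra, -0.27 (SE 0.14, adjusted p = 0.315) for Rxrb and -0.06 (SE 0.12, adjusted p = 0.829) for Rxrg. Rxrb read 78.2 and 85.4 in the control pools and 68.8 and 63.3 in the unloaded pools. The coactivator Med1 (0.27, SE 0.16, adjusted p = 0.394) and the chaperone-like Park7 (-0.15, SE 0.09, adjusted p = 0.400) did not pass.

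Of 17 muscle genes that other work has linked to NR4A receptors, 4 rose, none fell and 13 did not pass, with 7 higher and 4 lower at an unadjusted limma p under 0.05. The list median was 0.15. Ucp3, an uncoupling protein of muscle mitochondria, rose from 149.9 ± 12.4 to 375.1 ± 30.2 (1.27, SE 0.12, adjusted p = 9.2e-04). Pdp1, the phosphatase that activates pyruvate dehydrogenase, rose from 178.4 ± 10.0 to 352.7 ± 38.5 (0.95, SE 0.12, adjusted p = 0.00476). Its other probe set gave 0.51 (SE 0.12, adjusted p = 0.0538). The muscle phosphofructokinase Pfkm (0.57, SE 0.09, adjusted p = 0.0113; 0.08 on its other probe set, which did not pass) and the type 2A myosin heavy chain Myh2 (0.63, SE 0.14, adjusted p = 0.0403) rose too. Myh2 and Myh4 of this list are also markers of fast fibres. Of 11 such markers 6 rose, Myh2 among them, while Myh4 (0.15, SE 0.21, adjusted p = 0.75) did not pass. The summed signal of the 11 markers was 15220 and 13940 in the control pools and 20390 and 20600 in the unloaded pools. Their part in the rises of this list was not tested. Hk2 had the most negative log2 difference of this list (-0.59, SE 0.14, adjusted p = 0.0514) and did not pass. It passed as lower with an offset at the 50th percentile and with a filter at the 60th percentile. Under each of these settings 4 genes of the list were higher and 1 was lower, so the absence of a fall depends on the settings. The glucose transporter Slc2a4 (0.06, SE 0.09, adjusted p = 0.784), the glycogen primer Gyg1 (-0.33, SE 0.10, adjusted p = 0.112), the glycogen phosphorylase Pygm (0.24, SE 0.11, adjusted p = 0.259) and the fatty acid transporter Cd36 (-0.27, SE 0.10, adjusted p = 0.167) did not pass. The count of 4 came to 1 when control pool 2 or unloaded pool 2 was left out, and to 2 when unloaded pool 1 was. Pfkm (0.51 to 0.63) was not called with any 1 pool left out, Pdp1 not without control pool 2 (0.89) or unloaded pool 2 (0.84), and Myh2 not without control pool 2 (0.42), unloaded pool 1 (0.58) or unloaded pool 2 (0.67).

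**Figure D3:**
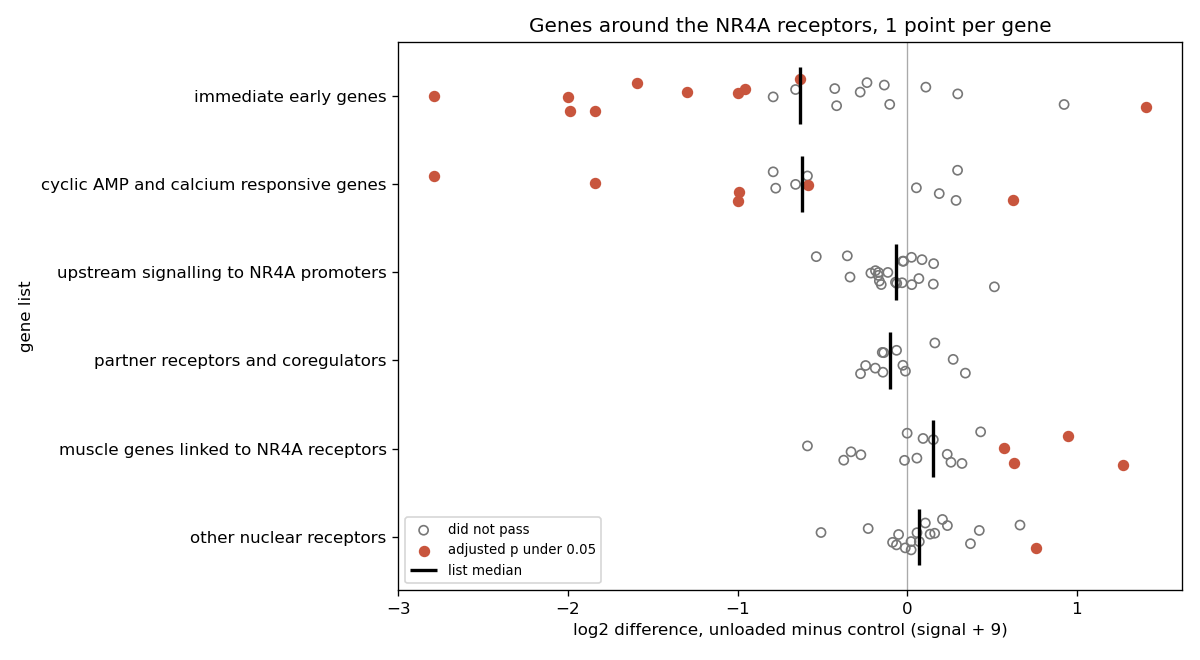
Log2 difference, unloaded minus control, of each tested gene in 6 lists around the NR4A receptors (1 point per gene, filled where adjusted p was under 0.05), with the list median as a vertical bar. Filled points lie to the left in the immediate early (9 of 21) and cyclic AMP and calcium (5 of 14) lists, to the right in the list of linked muscle genes (4 of 17), and are missing from the signalling and partner lists.

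Among 19 other nuclear receptors tested, 1 rose and 18 did not pass. The list median was 0.07. The receptor that rose was Nr1d1 (Rev-erb alpha), a repressor of the circadian clock, from 210.9 ± 27.1 to 362.1 ± 25.5 (0.76, SE 0.13, adjusted p = 0.0142). Its second probe set also rose (0.52, SE 0.11, adjusted p = 0.0333). The call was lost when control pool 1 (0.63), unloaded pool 1 (0.83) or unloaded pool 2 (0.69) was left out. Nr2f2 (0.67, SE 0.24, adjusted p = 0.167), Ppara (-0.51, SE 0.19, adjusted p = 0.176) and Nr2f1 (0.42, SE 0.19, adjusted p = 0.267) did not pass. Log2 differences in this list, with 1 probe set per gene, ran from -0.51 to 0.76. The 6 NR4A probe sets had -0.96 to -3.01, the last set by the offset. The NR4A family was chosen on this contrast, so nothing is read from how these ranges compare.

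Genes whose promoter window held the elements described above were also counted, a choice made after the Nr4a1 window had been read. Of 94 tested genes with TGCGTCA, 3 fell (3.19%) and 1 rose (1.06%), with a median log2 difference of -0.04, against 1.91% lower and 2.48% higher over the 2617 tested genes with a promoter entry. The genes that fell were Ppp1r15a, Dnajb1, a cochaperone (-0.75, SE 0.12, adjusted p = 0.0121), and the aminopeptidase Aopep (-0.51, SE 0.11, adjusted p = 0.0431). The gene that rose was Alas1, the first enzyme of heme synthesis (0.93, SE 0.17, adjusted p = 0.019). Of 68 tested genes with TGACGTCA, 3 fell (4.41%), namely Crem, Dusp1 and Ppp1r15a, and none rose. Of 105 tested genes with TGACTCA, 2 fell (1.9%), Ppp1r15a and the ATP synthase inhibitor Atp5if1 (-0.53, SE 0.10), and 1 rose (0.952%), the lactate carrier Slc16a3 (1.05, SE 0.16). Of 20 tested genes with the NBRE, to which NR4A receptors bind, 1 fell, the angiogenic factor Vegfa (-0.63, SE 0.10, adjusted p = 0.0122), and none rose. The members were left out of these counts. Dnajb1 (-0.69 to -0.82), Aopep (-0.39 to -0.64), Vegfa (-0.61 to -0.65), Atp5if1 (-0.47 to -0.60) and Crem (-0.55 to -0.62) were not called with any 1 pool left out. Of the 4 cases with 1 pool left out, Alas1 (1.19) and Slc16a3 (1.21) were called only without unloaded pool 2, and in the other 3 they gave 0.67 to 0.95 and 0.89 to 1.10.

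NR4A genes are also expressed by cells other than muscle fibres, and in bulk tissue fewer cells of a type and less RNA per cell cannot be told apart. Of 10 leukocyte markers on the array 5 passed the filter and none was called, with summed signals of 493.0 and 719.5 in the control pools and 677.0 and 589.4 in the unloaded pools. Among the 10, Lyz2 read 152.2 to 277.4, Cd74 112.2 to 191.8, Cd14 84.9 to 110.5, Cd4 53.4 to 68.6, Ptprc 4.8 to 22.9 and Itgam 0.6 to 4.7. Of 7 endothelial markers 5 passed the filter and none was called, with summed signals of 419.0 and 430.4 in the control pools and 351.0 and 378.4 in the unloaded pools. Pecam1 read 156.3 and 138.0 against 144.8 and 153.3, Flt1 164.3 and 157.2 against 122.5 and 150.4, Kdr 25.5 and 55.0 against 26.7 and 17.0, and Edn1 30.7 and 28.9 against 17.7 and 21.5. The summed signal of fast-fibre markers was higher in both unloaded pools, as given above. The part of endothelium and of fibre type in the NR4A differences was not tested.

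The sign of the difference was the same for the 6 NR4A probe sets under both other scalings of the arrays. Quantile normalization and median scaling moved the median of all tested probe sets from 0.00135 to 0.00912 and 0.028. Such shifts are small beside the NR4A differences, so the sign could hardly have changed. Without unloaded pool 2 the difference of U01146_s_at was -0.64, and without unloaded pool 1 it was -1.28. Those of U17254_g_at stayed between -2.46 and -2.74 over all settings.

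**Figure D4:**
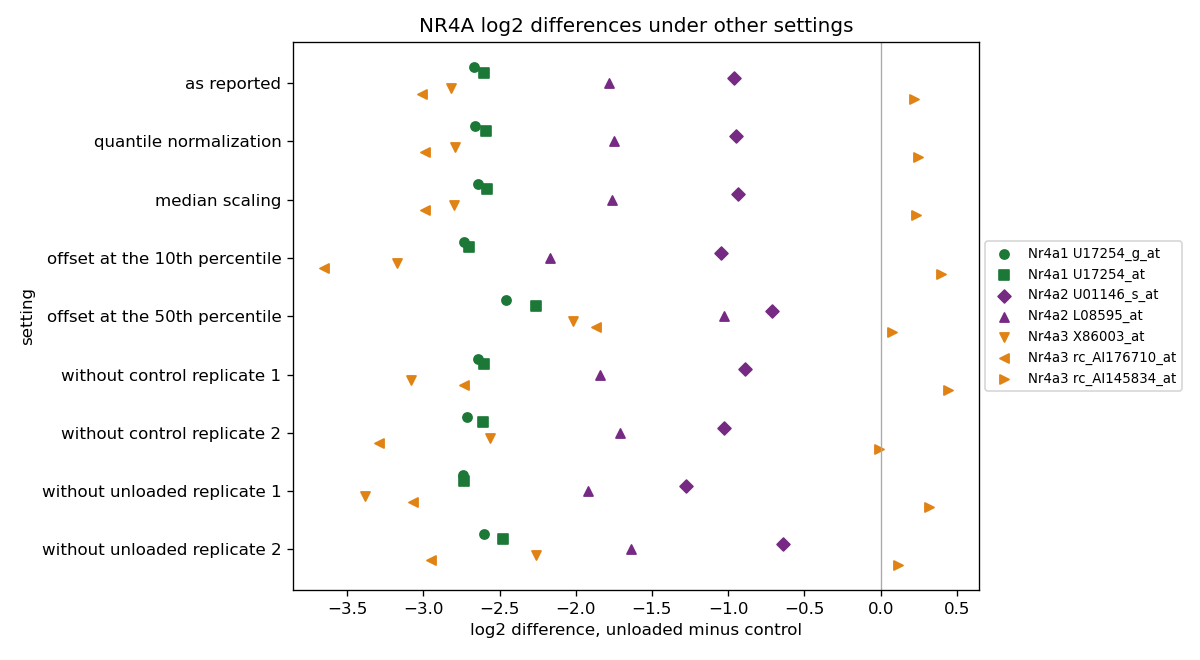
Log2 difference, unloaded minus control, of the 7 NR4A probe sets (markers) as reported and under 8 other settings (rows). The Nr4a1 probe sets stay between -2.26 and -2.74, and the Nr4a3 probe set rc_AI176710_at moves between -1.87 and -3.65 with the offset. The dim rc_AI145834_at moves between -0.008 and 0.44.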

How the data were processed

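The table that the authors deposited holds linear intensity values, made with MAS5 per the submitters' processing notes, which state neither version nor settings. Of 8799 probe sets, 59 Affymetrix controls were left out. Probe sets were named through the platform annotation, with symbols updated by gene ID to RefSeq (GRCr8): 7006 had 1 symbol, 308 several and 1426 none. Signals were taken as log2(signal + 9), 9 being their 25th percentile, and the 5257 probe sets with a mean of at least 21.0 (40th percentile) were fitted with limma 3.58.1 in R 4.3.3 (mean-variance trend, 2 residual and 5.80 prior degrees of freedom), unloaded against control. On simulated data for this comparison the share recovered was 30.4% for 1.5-fold changes, 79.3% for those of 2-fold and 98.8% for those of 4-fold, and 5.53% of calls were false. The simulated errors were normal and drawn from the variance model of the fit itself. These shares therefore hold only as far as that model holds for the arrays. The number of arrays limits the precision.

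The members, lists, tests and alternatives were chosen with earlier results of these data known. Named genes are all NR4A probe sets, the 6 genes nearest in pattern to U17254_g_at, and from each list the genes that passed plus up to 4 with the smallest p. Creb1, Rxra, Rxrg, Egr1, Junb, Jun, Hk2, Slc2a4, Gyg1, Pygm, Cd36 and the genes named for their promoters were added after their values were seen. Marker lists for smooth muscle, fibroblasts, adipocytes, red blood cells and nerve had no called gene, with summed unloaded to control signal ratios of 1.04, 1.13, 0.988, 1.16 and 0.918.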

Additional observations from a re-analysis of the deposited data

How the results depend on the processing

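The 6 NR4A probe sets with groups apart stayed so under quantile normalization and median scaling. The other alternatives cannot bring these groups together. The scalings could hardly do so either, and nothing is read from this. The array medians were 33.9 to 35.6, and the smallest gap between the groups was 0.57 on the log2 scale. The log2 differences of all 7 NR4A probe sets were compared in 84 cases. They cannot change with another filter or none, without the mean-variance trend or with a replicate block. The cases under those settings therefore say nothing on stability. In 7 of the 84 cases a difference moved by more than the spread between pools, each time with another offset. An offset of 34.8 (50th percentile) gave -2.46 and -2.26 for Nr4a1, -1.03 for L08595_at, and -2.02 and -1.87 for Nr4a3. An offset of 3 (10th percentile) gave -2.17 for L08595_at and -3.65 for rc_AI176710_at. Of 18 named list genes that passed, 7 passed in every alternative run: Atf3, Dusp1, Fos, Klf4, Ppp1r15a, Ucp3 and Zfp36l1. Dim unloaded signals limit L08595_at of Nr4a2 and the Nr4a3 probe sets.

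Over all probe sets 276 passed, against 90 without a filter, 113 without a mean-variance trend, and 67 to 84 with 1 pool left out. With the pool number as a replicate block, 165 passed (78 higher, 87 lower). Deviations of pools with the same number correlated at -0.04 and the labels give no shared source, so the number is not taken as a pairing. Of immediate early genes 10 passed, against 7 to 9 with 1 pool left out and 19 of their probe sets when every tested probe set was counted. Of cyclic AMP and calcium responsive genes 6 passed, against 3 without a filter, 3 without a trend, 3 to 4 with 1 pool left out and 14 probe sets. Of the linked muscle genes 4 passed, against 2 without a filter, 2 without a trend and 1 to 3 with 1 pool left out. Of the other nuclear receptors 1 passed, against 0 without a filter, 0 without a trend, 0 to 1 with 1 pool left out and 2 probe sets. With an offset at the 50th percentile, or with a filter at the 60th percentile, Hk2 passed as lower. Under each of these settings 7 cyclic AMP and calcium responsive genes passed, and 5 linked muscle genes (4 higher, 1 lower). The causes of these changes in the counts were not tested. With 1 pool left out the signalling and partner lists gained no call. Fewer probe sets passed in those fits over the whole array, so a gain was unlikely and nothing is read from this.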
